A study of Arabidopsis thaliana with 15 samples.

Results

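The 50 nuclear genes described here encode antenna, photosystem, electron carrier and Rubisco-related proteins that Arabidopsis thaliana makes outside the chloroplast. They were chosen by locus from 27981 loci on the array and comprised 6 LHCA genes for the antenna of photosystem I, 14 LHCB genes for the antenna of photosystem II, 12 PSA genes for subunits of photosystem I and 10 genes for photosystem II (9 subunit genes and PSBS). The remaining members were the plastocyanin genes PETE1 and PETE2, the Rieske gene PETC, 4 RBCS genes for the small subunit of Rubisco, and RCA for Rubisco activase. All 50 loci had a probe set, and 13 had several, of which the brightest on average over the 15 arrays was used. The samples were whole germinated seeds of the accession Col-0 at radicle protrusion, kept in 10 µM abscisic acid (ABA) in the dark at 20 °C for 0, 2, 12, 24 or 72 h. Each time was sampled in 3 pools of seeds harvested in bulk from at least 2 plants, labelled biological replicates, on 15 Affymetrix arrays in all. Before that, the seeds had been stratified at 4 °C and germinated at 22 °C in constant white light. No incubation without ABA or in light was analysed here, so ABA, the move to darkness, the lower temperature and elapsed time cannot be told apart. The series asked how ABA brings back desiccation tolerance in seeds that have already germinated.

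Antenna proteins bind chlorophyll and pass absorbed energy to the reaction centres, LHCA proteins mainly at photosystem I and LHCB proteins mainly at photosystem II. The nuclear photosystem subunits, the plastocyanin that carries electrons to photosystem I and the Rubisco small subunit are made in the cytosol and imported into the plastid. Transcription of many of these genes is known to be promoted by light, through factors such as HY5 and the GLK proteins, and to be lowered by ABA in green tissue.

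Nearly all of these genes had lower signal in ABA, and none was called higher than at 0 h at any time in the main fit of all arrays. Some alternative fits did call a rise. PSAH1 was called higher at 72 h with array weights and with only the arrays of 0 and 72 h. PSAH1 was also called higher then without replicate 2 of 2 h (limma, adjusted p = 0.0124). LHCB1.4, which was dim, was called higher at 24 h with array weights. In the main fit, 29 of 50 genes fell relative to 0 h at 2 h, 46 at 12 h, 41 at 24 h and 38 at 72 h (limma, adjusted p under 0.05 over all loci). Among all loci, 8.89% fell at 2 h, 11.7% at 12 h, 19.1% at 24 h and 20.2% at 72 h. By the same limma test 6.95%, 13.3%, 17.4% and 18.4% of all loci rose at 2, 12, 24 and 72 h, against 0 of the 50 genes. At an unadjusted p under 0.05 the count of risen genes was also 0 at each time, and 43, 47, 43 and 43 genes were lower. A moderated F test of any change from 0 h called 45 of the 50 genes, against 44% of all loci.

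The size of the fall was largest at 12 h in the median gene. On the log2 scale, where a difference of 1 is a 2-fold change, the median difference from 0 h over the 50 genes was -1.29 at 2 h, -2.05 at 12 h, -1.78 at 24 h and -1.68 at 72 h. The median over all loci was 0.11 at 2 h, -0.04 at 12 h, 0.00 at 24 h and -0.02 at 72 h. The median gene difference on single arrays lay between -2.05 and -1.99 at 12 h, between -2.0 and -1.70 at 24 h and between -1.84 and -1.57 at 72 h, so the arrays of neighbouring times overlapped. All 3 arrays lay below all 3 arrays of 0 h for 42 genes at 2 h, 48 at 12 h, 46 at 24 h and 44 at 72 h, against 14.3%, 25.7%, 29% and 30% of all loci. In whole seeds, fewer cells that express a gene and less RNA per cell cannot be told apart.

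The same genes made up most of these counts. Of the 50 genes, 37 were called lower at 12, 24 and 72 h alike and 22 at all 4 times. A further 8 were called at 12 h but not at 72 h, and 4 were called at no time, namely LHCA1, LHCB1.1, LHCB1.4 and RBCS1A. Without 2 h replicate 2, which stood apart from the other arrays, LHCA1 and RBCS1A were called lower at 12 h (adjusted p = 0.0294 and 0.026) and LHCB1.1 at 72 h (adjusted p = 0.0155), which left LHCB1.4. Of the 45 genes called by the F test, the lowest mean fell at 12 h for 27, at 24 h for 9 and at 72 h for 9. The highest mean was at 0 h for 43 of them and at 72 h for LHCB4.2 and PSAH1.

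**Figure D1:**
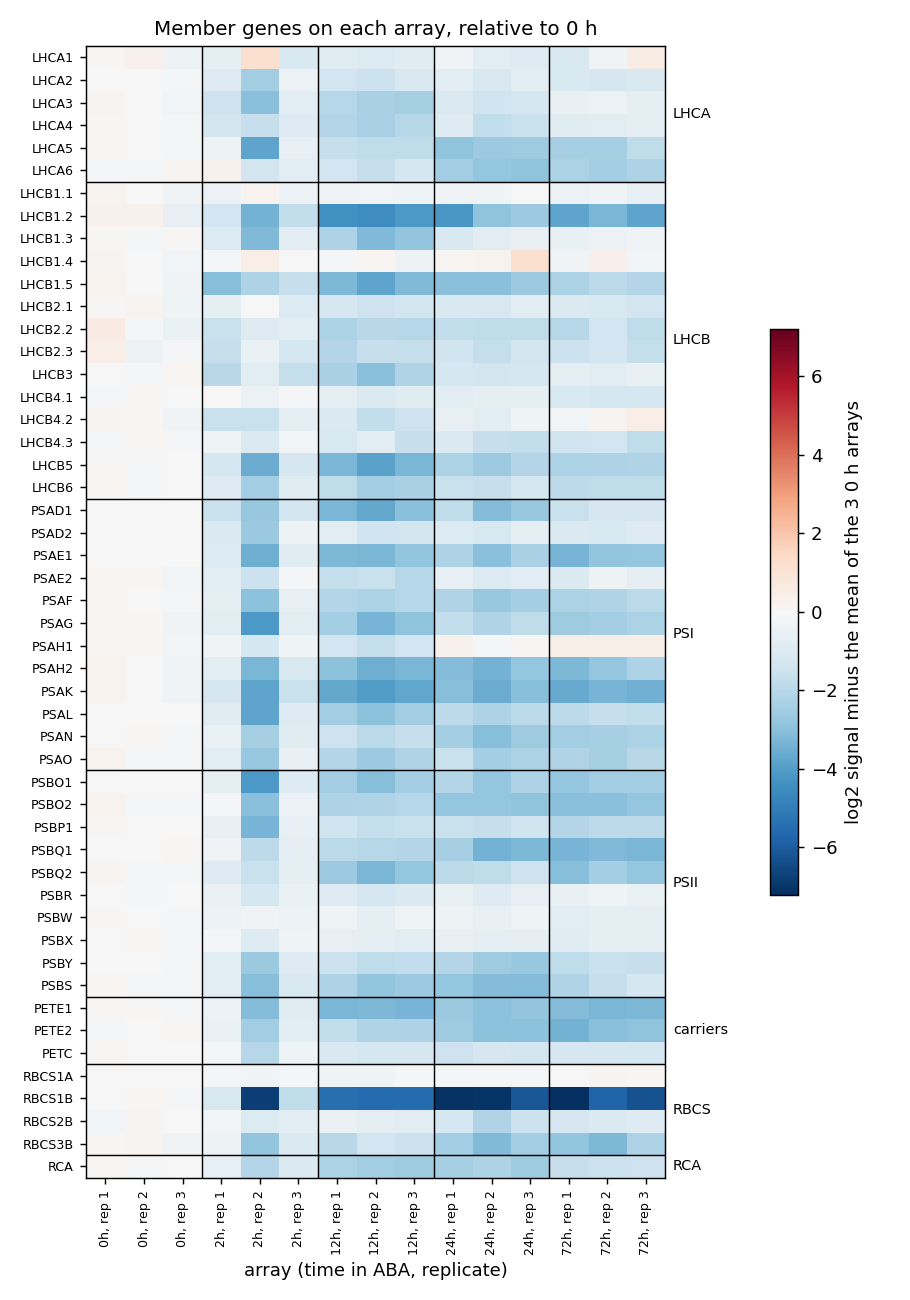
Colour gives the log2 signal of each of the 50 genes (rows, by subgroup) on each of the 15 arrays (columns, by time in ABA in hours and replicate) minus that gene's mean over the 3 arrays of 0 h. Blue, for lower than 0 h, fills most of the columns from 12 h on, RBCS1B is the darkest row, RBCS1A and LHCB1.1 stay close to white, and 2 h replicate 2 is darker than the other arrays of 2 h for most genes.

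One array of 2 h stood apart from the other 14. Replicate 2 of 2 h correlated with the other arrays of its time at r of 0.889 to 0.901 over all loci, while arrays within a time otherwise correlated at 0.986 to 0.995. It had the lowest of the 3 values of 2 h for 40 of the 50 genes, that is 80%, against 36.3% of all loci. Its interquartile range was 2.89, against 3.73 to 4.12 on the other arrays. Seed storage transcripts were also high on it: the cruciferin gene CRU3 read 11.83 on this array, against 6.99 and 7.51 on the other arrays of 2 h, and CRA1 read 11.31, against 7.53 and 8.35. Without this array the median difference of the 50 genes at 2 h was -0.73, and 34 genes fell at 2 h (10.5% of all loci), 48 at 12 h (19.9%), 44 at 24 h (25.6%) and 44 at 72 h (26.6%). The median at 2 h then stood at -0.78 for the LHCA genes, -1.02 for LHCB, -0.73 for photosystem I, -0.52 for photosystem II, -0.64 for the electron carriers, -0.58 for RBCS and -0.81 for RCA, against -1.28, -1.22, -1.58, -1.13, -1.26, -1.02 and -1.24 with all arrays. In that fit 0 genes rose at 2, 12 or 24 h, against 8.65%, 20.7% and 23.5% of all loci. The part of this array's seed storage signal in the values of 2 h was not tested.

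Markers of the labelled material ranged from bright on every array to near the lower quartile of all loci. The lipid mobilisation genes ICL, MLS and PCK1, which act in oil-using seedlings, read between 11.22 and 11.72 on all 15 arrays. Of the 4 endosperm genes, ZOU was dim, at 2.93 to 4.18 on all arrays, against a lower quartile of all loci of 3.146. MAN7, for a mannanase, rose at each time, by 3.02, 3.71, 3.25 and 2.70 at 2, 12, 24 and 72 h (adjusted p of 8.19e-08 or less), and EXPA2 rose at 12 h, by 0.95 (adjusted p = 0.0381). EPR1 was not called against 0 h, and EXPA2, EPR1 and MAN7 were lower at 72 h than at 12 h, at -1.51, -1.66 and -1.01 (adjusted p = 0.00355, 0.0188 and 0.00144). The log2 of the summed signal of the 4 genes lay at 10.57 to 10.60 at 0 h, 10.37 to 12.38 at 2 h, 11.84 to 11.91 at 12 h, 11.19 to 11.31 at 24 h and 10.36 to 10.60 at 72 h. All 4 seed reserve genes, CRA1, CRU3, OLEO1 and OLEO2, were higher at 24 h than at 0 h by limma at adjusted p under 0.05, with a median difference of 5.25, and 3 of the 4 at each other time. Their summed signal lay at 11.92 to 12.21 at 72 h on that scale, against 7.67 to 8.30 at 0 h. Of the 6 root genes, the root hair genes COBL9 and RHD2 fell at 2, 12 and 24 h and were not called at 72 h, at 0.16 and -0.17, while PLT1, PLT2, SCR and SHR were called at no time against 0 h (0.23, -0.43, -0.15 and 0.04 at 12 h). At 12 h COBL9 read 2.585 to 2.986 and RHD2 read 2.797 to 3.397, in the range of the lower quartile of all loci. The summed signal of the root list lay at 8.90 to 9.02 at 0 h, 8.67 to 8.75 at 12 h and 8.83 to 8.97 at 72 h. The part of shifts between tissues in the photosynthetic values was not tested.

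The photosystem I antenna genes had the subgroup median closest to its 0 h level at 72 h, although differences between subgroups were not tested. Single genes differed: LHCA5 stood at -2.20 and the dim LHCA1 at -0.26. Of the 6 LHCA genes, 3 fell at 2 h, 5 at 12 h, 4 at 24 h and 4 at 72 h by limma, with medians of -1.28, -1.61, -1.34 and -0.96 at those times. The 12 h call of LHCA5 (adjusted p = 0.0496) was lost without any single array of 0, 12, 24 or 72 h (adjusted p up to 0.119). LHCA4 (AT3G47470), for one of the main antenna proteins of photosystem I, read 8.13, 8.23 and 8.37 at 72 h, against 9.14, 8.99 and 8.95 at 0 h. The 2 sets did not overlap, and the difference was -0.78 ± 0.21 (SE, n = 3 arrays per time, adjusted p = 0.00857), after -2.18 ± 0.21 at 12 h. LHCA3 (AT1G61520) had fallen by 2.27 ± 0.38 at 12 h (adjusted p = 0.000497) and was not called at 72 h, with -0.54 ± 0.38 (adjusted p = 0.32). Without 2 h replicate 2, LHCA3 was called lower at 72 h by limma (adjusted p = 0.0157).

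LHCA5 and LHCA6, whose proteins are scarce and are known from the link between photosystem I and the NDH complex, were lowest at 24 h. The other LHCA genes had their lowest means at 12 h. Courses were not tested against each other, and no step of LHCA5 after 12 h was called in the main fit. Without 2 h replicate 2, limma called LHCA5 lower at 24 h than at 12 h, by -0.91 (adjusted p = 0.000889). In that fit LHCA5 then rose from 24 to 72 h, by 0.50 (adjusted p = 0.0486). LHCA6 (AT1G19150) read 3.85, 3.68 and 3.91 at 72 h, against 6.05, 6.03 and 6.30 at 0 h, the largest difference of the subgroup at -2.31 ± 0.30 (adjusted p = 3.12e-05). Its lowest mean was at 24 h, at 3.38 ± 0.20 (SD, n = 3), and so was that of LHCA5, at 5.62 ± 0.20. LHCA6 also fell between 12 and 24 h, at -1.31 ± 0.30 (adjusted p = 0.0199), a call that was lost without any one of 4 single arrays (adjusted p up to 0.0869). LHCA2 differed by -1.13 ± 0.37 at 72 h (adjusted p = 0.0233), and its call there was lost without any one of the 6 arrays compared (adjusted p up to 0.0655). LHCA1 (AT3G54890) was dim and variable, at 2.92, 3.77 and 4.57 at 72 h, against 4.1, 4.31 and 3.64 at 0 h, with overlapping arrays and -0.26 ± 0.49 (adjusted p = 0.77).

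The LHCB genes for the photosystem II antenna covered the widest span of courses within the antenna. By limma 9 of 14 fell at 2 h, 12 at 12 h, 10 at 24 h and 9 at 72 h, with medians of -1.22, -1.97, -1.39 and -1.38. The LHCB1 and LHCB2 genes encode the major trimeric antenna proteins, whose probe sets may share transcripts, since the copies are close in sequence. LHCB1.2 (AT1G29910) read 4.52, 4.99 and 4.52 at 72 h, against 8.59, 8.61 and 7.71 at 0 h, the largest fall among the LHCB genes at -3.63 ± 0.48 (adjusted p = 3.72e-05). LHCB1.3 (AT1G29930), the next but one gene on chromosome 1, read 8.18, 8.27 and 8.45 at 72 h, against 8.76, 8.56 and 8.77 at 0 h. The arrays of LHCB1.3 did not overlap, but it was not called at -0.40 ± 0.47 (adjusted p = 0.602).

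LHCB1.5 fell by 2.1 ± 0.29 at 72 h (adjusted p = 5.44e-05), to 5.47 ± 0.16 (SD, n = 3). LHCB1.1 and LHCB1.4 were not called against 0 h at any time in the main fit. Some alternatives called LHCB1.1 lower, as at 72 h without 2 h replicate 2 (limma, adjusted p = 0.0155). The means of LHCB1.1 and LHCB1.4 at 0 h were 3.08 ± 0.24 and 3.05 ± 0.21 (SD, n = 3). Both lay under the lower quartile of all loci of 3.146, so a fall could hardly be seen. The LHCB2 genes were also dim. LHCB2.1, LHCB2.2 and LHCB2.3 fell, with differences of -1.17 ± 0.22, -1.76 ± 0.27 and -1.54 ± 0.28 at 72 h (adjusted p = 0.000776, 0.000109 and 0.000483). Their means at 12 h, of 3.12, 2.76 and 2.73, had reached the range of the lower quartile. Those of LHCB2.2 and LHCB2.3 were also under it at 24 h (3.04 and 3.09) and at 72 h (3.10 and 3.04). The falls at these times may thus be larger than measured.

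The remaining LHCB genes encode LHCB3 of the trimers and the monomeric proteins that join the trimers to the reaction centre. LHCB5 and LHCB6, the monomeric proteins also called CP26 and CP24, fell, at -2.22 ± 0.46 and -1.83 ± 0.33 at 72 h (adjusted p = 0.00133 and 0.000483). LHCB3 (AT5G54270) had fallen by 2.5 ± 0.26 at 12 h (adjusted p = 8.96e-06) and lay at -0.69 ± 0.26 at 72 h (adjusted p = 0.0522), without a call. Without 2 h replicate 2, LHCB3 was called lower at 72 h by limma (adjusted p = 0.00386). LHCB4.2 (AT3G08940), one of 3 genes for the monomeric protein CP29, read 6.30, 6.70 and 6.95 at 72 h, against 6.68, 6.59 and 6.23 at 0 h. These sets overlapped, and at 0.15 ± 0.27 (adjusted p = 0.757) it had the highest difference of the LHCB genes at 72 h. The probe sets of LHCB4.3 disagreed most of the 13 genes with several: the one used gave -1.56 at 72 h (adjusted p = 0.000324) and the other -0.42. The other had a mean of 3.09 at 0 h, under the lower quartile of all loci of 3.146, so a fall could hardly be seen with it. The one used had a mean of 5.03 at 0 h.

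Photosystem I subunit genes had the most negative median of the 5 larger subgroups at 12, 24 and 72 h, although differences between subgroups were not tested. By limma 9 of 12 fell at 2 h, 12 at 12 h, 10 at 24 h and 9 at 72 h, with medians of -1.58, -2.48, -2.28 and -2.14. Without 2 h replicate 2 their median at 2 h was -0.73, against -1.02 for the LHCB genes. PSAK (AT1G30380), a small membrane subunit next to the antenna, read 4.15, 4.44 and 4.32 at 72 h, against 8.01, 7.81 and 7.52 at 0 h. All arrays of 72 h lay below those of 0 h, and the difference was -3.48 ± 0.46 (adjusted p = 3.81e-05). PSAE1 (AT4G28750), for a stromal subunit near the ferredoxin docking site, fell by 3.01 ± 0.51 (adjusted p = 0.000314).

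PSAH2 (AT1G52230), for a subunit at the docking site of the mobile antenna, read 4.19, 4.62 and 5.19 at 72 h, against 7.69, 7.39 and 7.15 at 0 h, a difference of -2.75 ± 0.49 (adjusted p = 0.000415). Its paralog PSAH1 (AT3G16140) read 8.31, 8.30 and 8.27 at 72 h, against 7.93, 8.0 and 7.66 at 0 h. PSAH1 was thus above 0 h on all 3 arrays, as were 28.1% of all loci, and was not called, at 0.43 ± 0.23 (adjusted p = 0.172). Without 2 h replicate 2 it was the 1 gene of the 50 called higher at 72 h, against 24.6% of all loci. PSAH1 was also called higher at 72 h with array weights and with only the 6 arrays compared. PSAF, which docks plastocyanin, and PSAN, on the lumenal side beside it, fell, at -2.11 ± 0.45 and -2.39 ± 0.35 at 72 h (adjusted p = 0.00159 and 9.24e-05). PSAG, PSAO and PSAL, membrane subunits at the antenna sides, fell, at -2.43, -2.17 and -1.77 (adjusted p = 0.00743, 0.000971 and 0.017), the call for PSAL being lost without 72 h replicate 1 (adjusted p = 0.0529). PSAD2, for the ferredoxin-docking subunit, was called at 12 h at -1.17 ± 0.40 (adjusted p = 0.0488), a call lost without any one of 12 single arrays, and not at 72 h. Without 2 h replicate 2, PSAD2 was called lower at 72 h by limma (adjusted p = 0.000283).

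By limma 4 of 10 fell at 2 h, 10 at 12 h, 10 at 24 h and 9 at 72 h, with medians of -1.13, -1.88, -2.06 and -1.83. The call of PSBP1 at 12 h (adjusted p = 0.0387) was lost without any one of 12 single arrays, and those of PSBW and PSBX without any one of 3 and 2. At 24 h the calls of PSBP1, PSBR, PSBW and PSBX were lost without 24 h replicate 2 (adjusted p = 0.0769, 0.0593, 0.1 and 0.0557). The genes of the lumenal oxygen-evolving proteins had the deepest falls of this subgroup at 72 h: -2.61 ± 0.63 for PSBO1, -2.93 ± 0.50 for PSBO2, -3.28 ± 0.33 for PSBQ1 and -2.77 ± 0.24 for PSBQ2 (adjusted p = 0.00422, 0.000331, 3.49e-06 and 9.78e-07). PSBP1, of the same group, fell by 1.97 ± 0.52 (adjusted p = 0.00709). PSBQ1 (AT4G21280) read 5.20, 5.33 and 5.22 at 72 h, against 8.49, 8.51 and 8.59 at 0 h, with means of 7.59, 6.49 and 5.52 at 2, 12 and 24 h between them. Its mean was thus lower at each later time, and it was the 1 gene called lower at 72 h than at 12 h, at -1.24 ± 0.33 (adjusted p = 0.017).

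The genes of the small photosystem II proteins PSBR, PSBW and PSBX had differences nearer to 0, which were not tested against the others. PSBR (AT1G79040) read 8.89, 9.15 and 8.97 at 72 h, against 9.47, 9.38 and 9.48 at 0 h, without overlap, and was not called at -0.44 ± 0.20 (adjusted p = 0.0958). Without 2 h replicate 2, PSBR was called lower at 72 h by limma (adjusted p = 0.00544). PSBW and PSBX fell, at -0.70 ± 0.13 and -0.77 ± 0.18 at 72 h (adjusted p = 0.00059 and 0.00366). PSBS, the protein needed for rapid dissipation of excess light energy, reached its lowest mean at 24 h, at 6.46 ± 0.20 (SD, n = 3), and lay at 7.77 ± 0.45 at 72 h. Its step from 24 to 72 h of 1.32 ± 0.43 was not called (adjusted p = 0.135), and it was called without 2 h replicate 2 (adjusted p = 0.000852).

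**Figure D2:**
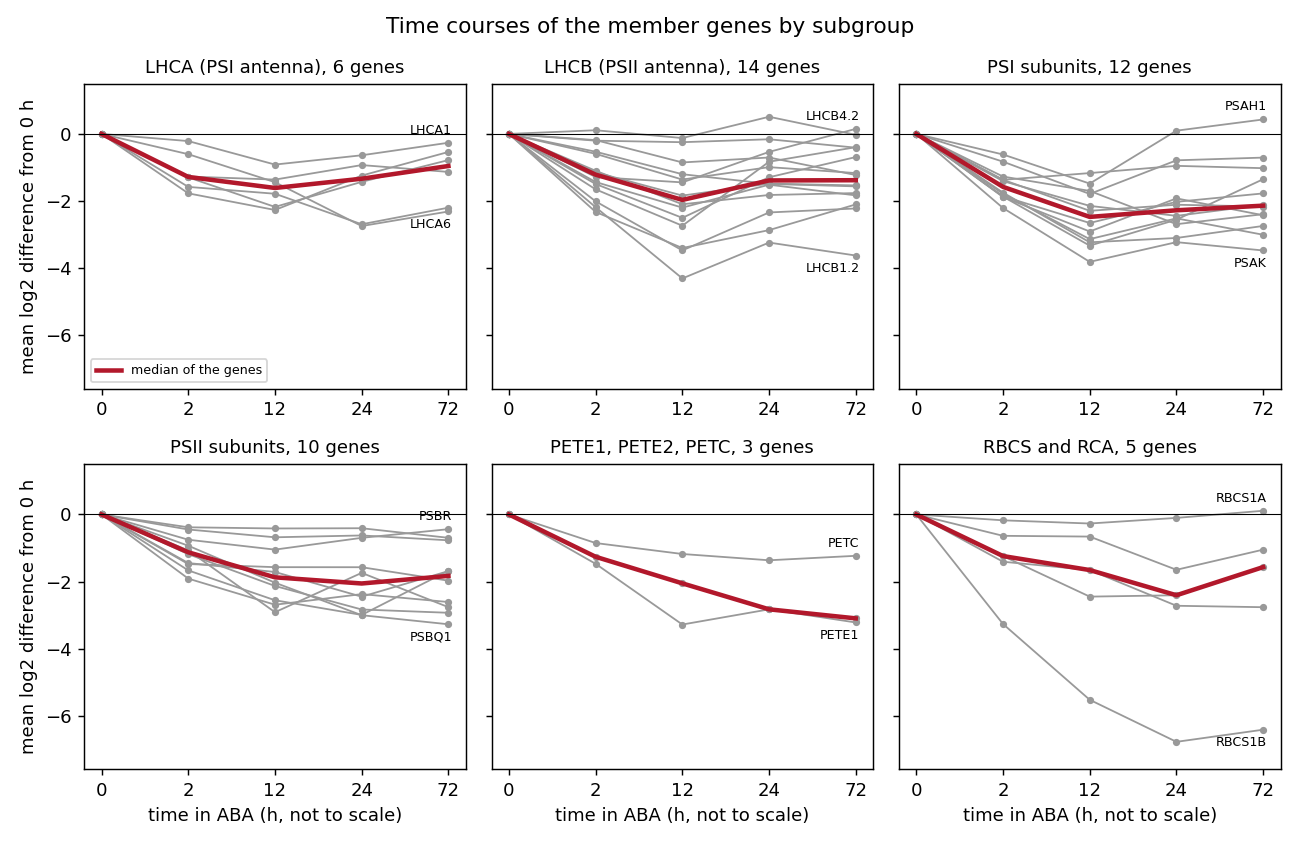
Each grey line is 1 gene, plotted as its mean log2 difference from 0 h (n = 3 arrays per time) against time in ABA (h, not to scale), and the red line is the median of the genes in that panel. The LHCA and LHCB medians are lowest at 12 h, at -1.61 and -1.97, the PSII median is lowest at 24 h, at -2.06, and the median of PETE1, PETE2 and PETC is lowest at 72 h, at -3.10.

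The electron carrier genes had their lowest median at 72 h. By limma 2 of 3 fell at 2 h and all 3 at 12, 24 and 72 h, with medians of -1.26, -2.06, -2.83 and -3.10. Both plastocyanin genes were called lower at each time: PETE1 (AT1G76100) read 3.63, 3.47 and 3.52 at 72 h, against 6.85, 6.84 and 6.60 at 0 h, and PETE2 (AT1G20340) read 5.54, 5.94 and 6.03, against 8.85, 8.96 and 9.00. Neither pair of sets overlapped, and the differences were -3.22 ± 0.47 and -3.10 ± 0.37 (adjusted p = 8.26e-05 and 1.57e-05). The 2 h calls of PETE1 and PETE2 (adjusted p = 0.0473 and 0.0333) were lost without any one of 12 single arrays for PETE1 and without any one of the 3 arrays of 0 h for PETE2 (adjusted p up to 0.124 and 0.0983). The lowest mean of PETE1 was at 12 h, at 3.48 ± 0.06 (SD, n = 3), whereas PETE2 stood at 6.88 ± 0.25 then and was lowest at 72 h. PETC (AT4G03280), the Rieske iron-sulfur protein of the cytochrome b6f complex, fell by 1.23 ± 0.35 at 72 h (adjusted p = 0.012). At 12 h, where it stood at -1.18 ± 0.35 (adjusted p = 0.0237), its call was lost without any one of the 6 arrays compared (adjusted p up to 0.0722).

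The Rubisco small subunit genes held the largest fall and the steadiest signal of the 50 genes. RBCS1B (AT5G38430) read 2.68, 4.11 and 3.61 at 72 h, against 9.86, 10.03 and 9.76 at 0 h, a difference of -6.42 ± 1.0 (adjusted p = 0.000147). It had already reached 4.43, 4.27 and 4.37 at 12 h, and at 24 h its mean of 3.10 ± 0.54 (SD, n = 3) was under the lower quartile of all loci. At 2 h its arrays spread from 3.09 on replicate 2 to 8.04 and 8.72, and the difference there was -3.27 ± 1.0 with all arrays (adjusted p = 0.0396) and -1.51 without replicate 2 (adjusted p = 0.00603). RBCS1A (AT1G67090) read 10.22, 10.38 and 10.25 at 72 h, against 10.16, 10.19 and 10.18 at 0 h, all 3 arrays above 0 h but only by 0.11 ± 0.11 (adjusted p = 0.523). Its time means stayed between 9.91 at 12 h and 10.29 at 72 h, and neither the F test (adjusted p = 0.07) nor any time against 0 h called it.

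RBCS3B and RBCS2B lay between these. RBCS3B (AT5G38410) read 4.62, 4.23 and 5.27 at 72 h, against 7.55, 7.66 and 7.21 at 0 h (-2.77 ± 0.48, adjusted p = 0.000334), and RBCS2B (AT5G38420) fell by 1.05 ± 0.23 (adjusted p = 0.00206). RBCS2B had its lowest mean at 24 h, at 8.20 ± 0.45 (SD, n = 3), and the step of -0.99 ± 0.23 from 12 to 24 h was called (adjusted p = 0.0207), a call lost without any one of 5 single arrays (adjusted p up to 0.102). At 12 h its fall of 0.66 ± 0.23 was near the threshold (adjusted p = 0.0493) and was lost without any one of 11 single arrays. RBCS1B, RBCS2B and RBCS3B stand side by side on chromosome 5, and RBCS1A lies on chromosome 1. RCA (AT2G39730), the activase that frees Rubisco of inhibitory sugar phosphates, read 7.10, 7.25 and 7.26 at 72 h, against 8.87, 8.68 and 8.77 at 0 h. It fell by 1.57 ± 0.28 (adjusted p = 0.000385), after -2.45 ± 0.28 at 12 h and -2.41 ± 0.28 at 24 h.

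Paralogs were compared in how far they had moved by 72 h. In the 10 families with several members, 28 pairs of genes were compared by the difference between their changes from 0 to 72 h. The 7 pairs with LHCB1.1 or LHCB1.4, which lay under the lower quartile at 0 h, were left out of the counts. In 17 of the other 21 pairs, that is 81%, the within-array difference between both genes at 72 h did not overlap that at 0 h, against 73.4% of all pairs among the 21101 loci above that quartile at 0 h. The changes differed by at least 1 in 13 pairs, 61.9%, against 42.1% of all such pairs of loci. These 13 pairs came from the RBCS, LHCB1, LHCB4, PSAE and PSAH families only. Pairs within a family share genes, so they are not independent of each other. Every one of the 17 pairs had an exact two-sided permutation p of 0.1, the smallest that 3 arrays against 3 can give (0.127 adjusted over all 28 pairs), so no pair could pass 0.05. RBCS1A minus RBCS1B gave the largest such difference, of 6.53 ± 0.38 (SE, n = 3 arrays per time). LHCB1.2 minus LHCB1.3 gave -3.23 ± 0.39, and PSAH1 minus PSAH2 gave 3.18 ± 0.32.

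Smaller differences were found in most other families. PSAE1 minus PSAE2 gave -2.30 ± 0.16, with PSAE2 itself at -0.71 ± 0.29 at 72 h (adjusted p = 0.0711). Without 2 h replicate 2, PSAE2 was called lower at 72 h by limma (adjusted p = 0.00791). LHCB4.1 minus LHCB4.2 gave -1.38 ± 0.30, with LHCB4.1 at -1.23 ± 0.15 (adjusted p = 1.46e-05). PSBO1 minus PSBO2 and PSAD1 minus PSAD2 did not overlap either, but differed only by 0.32 ± 0.15 and -0.33 ± 0.14. The plastocyanin genes overlapped, at -0.12 ± 0.23 (exact two-sided permutation p = 0.7). Neighbouring position did not go with a common course in every case: LHCB1.2 and LHCB1.3, with LHCB1.1 between them on chromosome 1, had changes of -3.63 and -0.40. How far single probes tell such copies apart was not tested, since probe sequences were not used here.

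**Figure D3:**
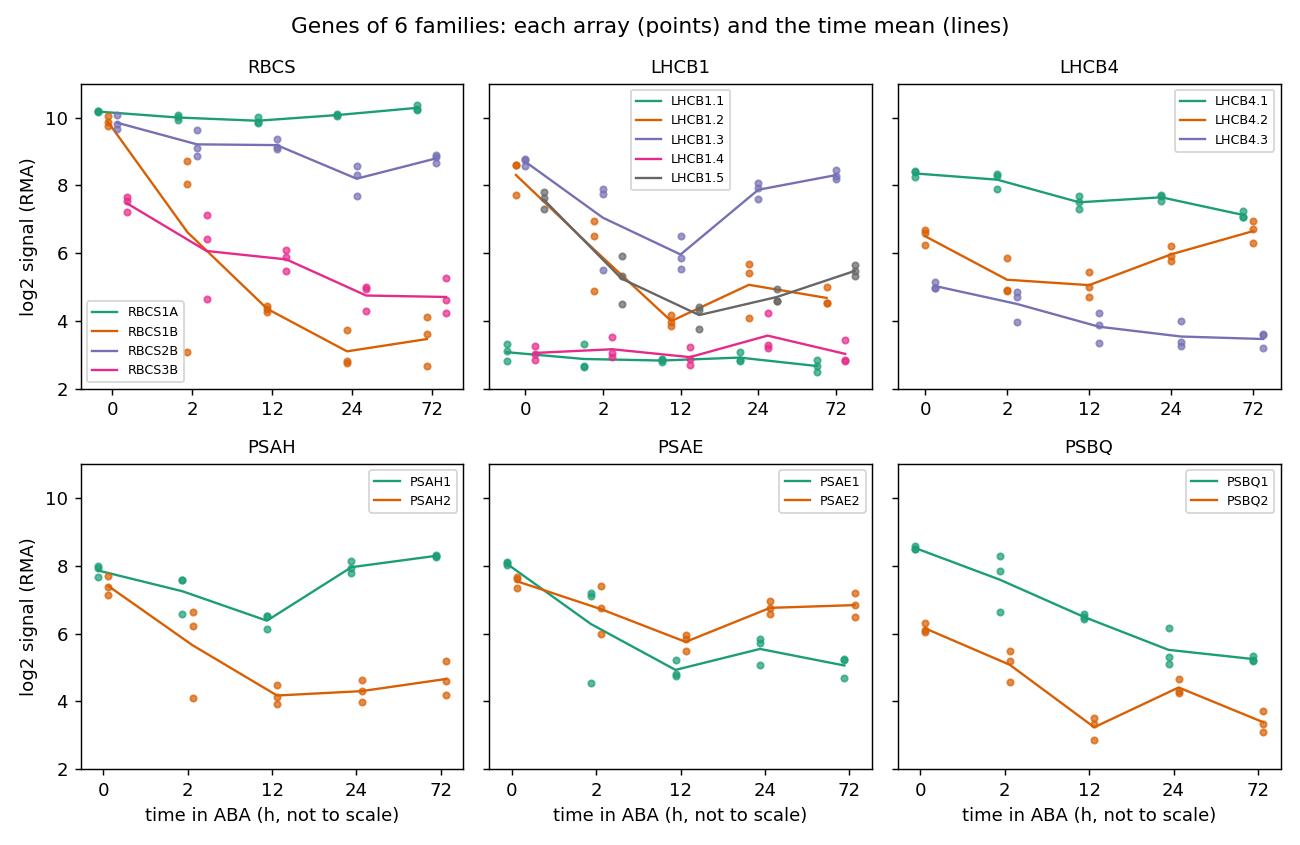
Points are the RMA log2 signal on each array and lines join the time means (n = 3 arrays) for the genes of 6 families, against time in ABA (h, not to scale); heights of different genes are not comparable, since their probes differ. RBCS1A stays near 10 while RBCS1B drops to 3.46 at 72 h, and PSAH1 is at 8.30 at 72 h while PSAH2 is at 4.66.

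Steps between successive times were called for few genes. Between 2 and 12 h 10 genes fell further, against 1.62% of all loci, and none rose (3.27% of all loci, limma; also 0 at an unadjusted p under 0.05). The count depended on 2 h replicate 2, without which 40 genes fell (6.84% of all loci) and 0 rose (8.44%). Between 12 and 24 h, 4 genes rose (2.75% of all loci) and LHCA6 and RBCS2B (AT5G38420) fell (3.81%). Those that rose were LHCB1.3 by 1.91 ± 0.47, PSAH1 by 1.58 ± 0.23, LHCB3 by 1.21 ± 0.26 and PSBQ2 by 1.17 ± 0.24 (adjusted p = 0.0272, 0.00168, 0.0149 and 0.012). The call of PSAH1 was the 1 call of this step that held without each single array in turn. Without 2 h replicate 2 the step had 19 risen and 10 fallen genes, against 8.97% and 12.4% of all loci.

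PSBQ2 (AT4G05180) was the 1 gene called between 24 and 72 h (1.39% of all loci fell). It read 3.10, 3.73 and 3.34 at 72 h, against 4.25, 4.32 and 4.66 at 24 h, a fall of 1.02 ± 0.24 (adjusted p = 0.0353) that was lost without any one of 9 single arrays. At 12 h it had read 3.52, 2.85 and 3.35, so its 3 arrays of 24 h stood above those on both sides. All 3 arrays of 24 h lay above those of 12 h for 17.9% of all loci, and all 3 of 72 h below those of 24 h for 15.8%. No gene rose in this step by limma (1.93% of all loci), although 8 were higher at an unadjusted p under 0.05. Without 2 h replicate 2, 8 genes rose and 3 fell (6.47% and 6.36% of all loci).

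A comparison of 72 h with 12 h was added after the time courses had been seen. It called 12 genes higher at 72 h, 24% of the 50 against 9.07% of all loci, and PSBQ1 lower, 2% against 11%. The genes that rose were LHCA3, LHCA4, LHCB1.3, LHCB1.5, LHCB3, LHCB4.2, PSAD1, PSAE2, PSAH1, PSBR, RBCS1A and RCA, of which LHCA3, LHCA4, LHCB1.3, LHCB1.5, LHCB3, LHCB4.2, PSAD1 and PSAH1 were called under every alternative tried. LHCB1.3 read 8.18, 8.27 and 8.45 at 72 h, against 6.49, 5.52 and 5.86 at 12 h, a rise of 2.34 ± 0.47 (adjusted p = 0.00282). PSAD1 (AT4G02770) read 7.13, 7.55 and 7.52, against 5.46, 5.05 and 5.74 at 12 h, a rise of 1.98 ± 0.36 (adjusted p = 0.00138). Neither gene's arrays overlapped between these times, and 23.1% of all loci lay as wholly above 12 h.

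Of these 8 genes, PSAD1, LHCA4 and LHCB1.5 were still called lower at 72 h than at 0 h, the values for PSAD1 being -1.35 ± 0.36 (adjusted p = 0.00727). Without 2 h replicate 2, LHCA3 and LHCB3 were also called lower at 72 h than at 0 h by limma (adjusted p = 0.0157 and 0.00386). The rises of PSAH1 and LHCB3 were 1.91 ± 0.23 and 1.81 ± 0.26 (adjusted p = 7.77e-05 and 0.000318). Those of LHCA3 and LHCB4.2 were 1.73 ± 0.38 and 1.60 ± 0.27 (adjusted p = 0.00517 and 0.00089), and those of LHCA4 and LHCB1.5 were 1.4 ± 0.21 and 1.30 ± 0.29 (adjusted p = 0.00041 and 0.00603). Among the subgroups, 2 of 6 LHCA, 4 of 14 LHCB, 3 of 12 photosystem I, 1 of 10 photosystem II and 1 of 4 RBCS genes and RCA rose, and none of the 3 electron carrier genes. For PSBR the call was lost without any single array of 0, 12 or 72 h, and without 24 h replicate 1 or 3 (adjusted p up to 0.148). That of RCA was lost without any one of the 6 arrays compared (up to 0.111). For RBCS1A and PSAE2 the call was lost without at least 2 single arrays each (up to 0.109 and 0.0818), and that of PSBQ1 without 4 (up to 0.0574). Without 2 h replicate 2, 15 genes rose and 10 fell (16.4% and 18.7% of all loci).

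**Figure D4:**
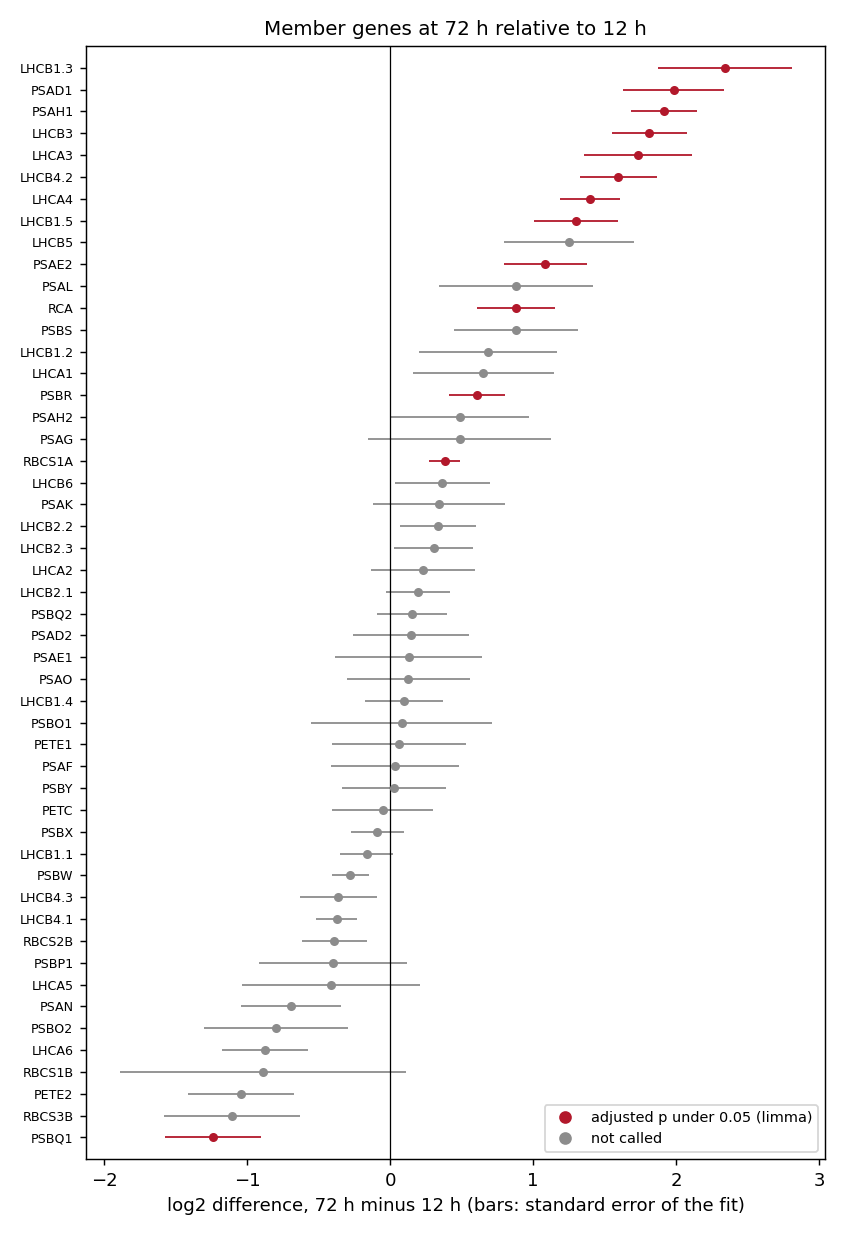
Points are the log2 difference at 72 h minus 12 h for each of the 50 genes, in order of size, with bars for the standard error of the fit (n = 3 arrays per time) and red for adjusted p under 0.05 by limma. LHCB1.3 is at the top at 2.34, 12 red points lie right of 0, and PSBQ1 is the 1 red point left of 0, at -1.24.

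Other genes of the same pathways fell in part. Of 15 Calvin cycle genes, 2 fell at 2 h, 9 at 12 h, 9 at 24 h and 8 at 72 h by limma, with medians of -0.51, -0.88, -1.04 and -0.71. CP12-3, for a linker protein of the cycle, was the 1 gene of this list that rose, at 12 h (0.65) and 24 h (0.59). The lowest at 72 h were GAPA2, a subunit gene of the chloroplast glyceraldehyde phosphate dehydrogenase, at -3.10 ± 0.41 (adjusted p = 3.31e-05), and CP12-2 at -1.74 ± 0.22 (adjusted p = 2.92e-05). The highest were the plastid triose phosphate isomerase gene PDTPI at 0.35 ± 0.22 and CP12-1 at 0.31 ± 0.12, neither of which was called (adjusted p = 0.238 and 0.0501).

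Of 19 further thylakoid genes, such as those of the ATP synthase and ferredoxin, 3 fell at 2 h, 11 at 12 h, 12 at 24 h and 10 at 72 h, with medians of -0.33, -0.62, -0.97 and -0.72. The lowest at 72 h were LFNR1, a ferredoxin-NADP reductase, at -2.10 ± 0.48 and ATPD, the delta subunit of the ATP synthase, at -2.01 ± 0.17 (adjusted p = 0.00274 and 7.25e-07). ATPG, another ATP synthase subunit, rose by 0.42 ± 0.15 at 72 h (adjusted p = 0.0368), while the dim PSBP2 was not called at 0.93 ± 0.39 (adjusted p = 0.0725). ATPC2 rose at 24 h, by 0.67. The differences in share between these lists and the 50 genes were not tested.

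**Figure D5:**
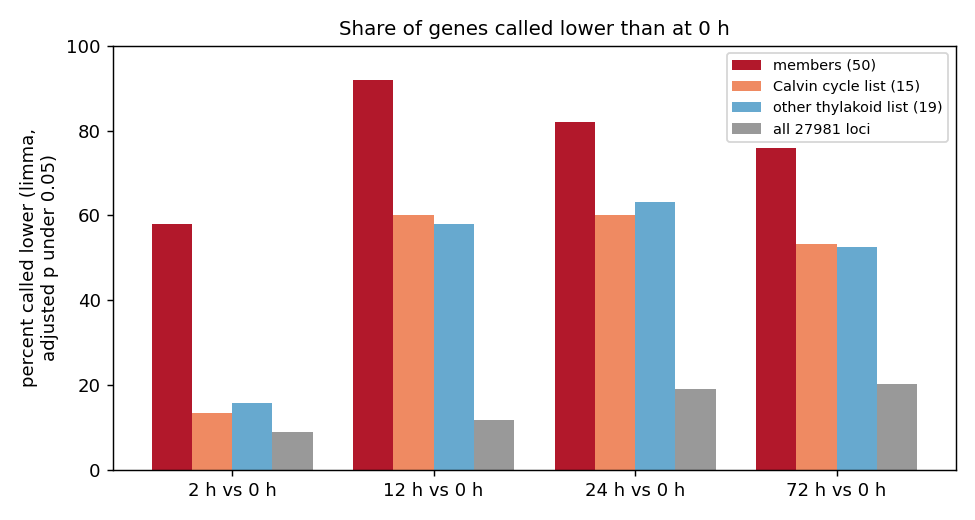
Bars give the percentage of genes called lower than at 0 h (limma, adjusted p under 0.05) at 2, 12, 24 and 72 h in ABA for the 50 genes, the 15 Calvin cycle genes, the 19 other thylakoid genes and all 27981 loci. At 12 h the bars stand at 92%, 60%, 57.9% and 11.7%.

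Among the regulators, HY5 and GLK2 were lower than at 0 h until 24 h and HY5 was above it at 72 h. HY5, a transcription factor that promotes greening, read 9.16, 9.51 and 9.35 at 72 h, against 7.95, 7.51 and 7.45 at 0 h, a rise of 1.70 ± 0.27 (adjusted p = 0.000195). At 12 h it had fallen by 2.15 ± 0.27 (adjusted p = 5.29e-05), and it rose by 3.09 ± 0.27 between 24 and 72 h (adjusted p = 3.28e-05). GLK2, which activates antenna and chlorophyll synthesis genes, read 9.15, 9.27 and 9.20 at 72 h, against 6.84, 7.16 and 7.39 at 24 h. The arrays did not overlap, and the rise was 2.08 ± 0.27 (adjusted p = 0.000684), which left it at 0.61 ± 0.27 relative to 0 h, with no call (adjusted p = 0.0967).

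GLK1, the paralog of GLK2, rose by 0.55 ± 0.17 at 12 h (adjusted p = 0.0282) and was not called at 72 h, at -0.27 ± 0.17 (adjusted p = 0.251). Over the same step from 24 to 72 h in which HY5 and GLK2 rose, the 50 genes had a median difference of 0.07, against -0.02 for all loci. Whether the regulators' course bears on that of the 50 genes was not tested.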

How the data were processed

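Per the labels' protocols, 50 ng of total RNA was turned into biotin-labelled cDNA and hybridised to Affymetrix arrays. The authors deposited RMA output on the log2 scale, per the submitters' processing notes. RMA corrects background, equalises the distribution over arrays and summarises probes into sets, which compresses low signals. The array design, the build and the version of RMA are not given in the sources used. The 35986 probe sets carry locus names, and 1 per locus, with the highest mean over 15 arrays, was kept, leaving 27981 loci.

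All 15 arrays entered 1 linear model with a mean for each time, and times were compared two-sided with moderated statistics from limma 3.58.1 (R 4.3.3). P-values were adjusted by Benjamini and Hochberg over all loci, with calls at adjusted p under 0.05. Paralog pairs were compared with exact permutation tests (scipy 1.17.1). The fit was tested on simulated data. The members, gene lists, tests and named genes were chosen with earlier results of these data known. Named with full values were the lowest and highest gene of each subgroup at 72 h, close paralogs, the 2 lowest and 2 highest genes of each further list and all regulators. Gene order came from RefSeq's table of the assembly TAIR10.1, which held all 50 loci. Its start coordinates were used only to sort the genes. No sequence was used. Alternatives tried were a replicate block, a second quantile normalization, centring of arrays, leaving out the 25% of loci with the lowest mean, array weights, an intensity trend, the mean of all probe sets, adjusted p under 0.01, only the 6 arrays compared, and leaving out each array. The 3 arrays per time limit the precision. Replicate numbers were not treated as pairs, since deviations of same-numbered arrays correlated at -0.17 to 0.27, over 0.1 in 11 of 30 pairs.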

Additional observations from a re-analysis of the deposited data

Results flagged for a closer look

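Between 12 and 24 h in ABA, 4 genes moved against their own fall at 12 h, so that their differences from 0 h at 24 h and 12 h differed by the limma test of the step itself. LHCB1.3 stood at -0.83 at 24 h and -2.74 at 12 h, a step of 1.91 (adjusted p = 0.0272). LHCB3 stood at -1.29 at 24 h and -2.50 at 12 h, a step of 1.21 (adjusted p = 0.0149). PSAH1 stood at 0.10 at 24 h and -1.48 at 12 h, a step of 1.58 (adjusted p = 0.00168). PSBQ2 stood at -1.74 at 24 h and -2.92 at 12 h, a step of 1.17 (adjusted p = 0.012). All 3 arrays of 24 h were above all 3 of 12 h for each of these genes, as they were for 17.9% of all loci.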

How the results depend on the processing

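No called difference of a member changed direction under any alternative. Of the calls against 0 h, 4 of 29 at 2 h, 37 of 46 at 12 h, 34 of 41 at 24 h and 34 of 38 at 72 h were made under every alternative. The counts called were 29 at 2 h, 10 between 2 and 12 h, 6 between 12 and 24 h, 1 between 24 and 72 h and 13 between 12 and 72 h. At adjusted p under 0.01 they were 12, 1, 1, 0 and 8. With only the 6 arrays compared they were 4, 0, 24, 11 and 26. With array weights they were 38, 33, 20 and 26 for the last 4. The count between 24 and 72 h was 2 with repeated quantile normalization, with array centring, without the lowest loci and with an intensity trend. Without single arrays the 5 counts ranged over 13 to 41, 1 to 40, 1 to 29, 0 to 11 and 9 to 25; the count at 2 h was lowest without 0 h replicate 1 and highest without 2 h replicate 1, and the others were highest without 2 h replicate 2. Counts against 0 h then ranged over 38 to 48 at 12 h, 34 to 44 at 24 h and 36 to 45 at 72 h. Among medians, that of LHCB at 12 h was -2.15 without the lowest loci, which dropped 2 of its dim genes, and that of LHCB at 24 h was -1.15 with the mean of all probe sets. Without single arrays, medians ranged over -1.38 to -1.01 for LHCB at 2 h, -2.05 to -1.91 for all 50 genes at 12 h, -2.09 to -1.70 for LHCB at 12 h and -3.19 to -2.95 for the electron carriers at 72 h. The medians of the other subgroups at 2 h moved by over 1.5 times without 2 h replicate 2, to -0.78 for LHCA, -0.73 for photosystem I, -0.52 for photosystem II, -0.64 for the electron carriers, -0.58 for RBCS and -0.81 for RCA. Causes were not tested. With the replicate number as a block, 31, 45, 41 and 39 genes were called at 2, 12, 24 and 72 h against 0 h, 8 between 2 and 12 h, 7 between 12 and 24 h, and 1 between 24 and 72 h. A time left with 2 arrays is taken to vary as the rest do. The 7 members whose mean lay under the lower quartile of loci at some time may have fallen further than measured.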
